A study of Rattus norvegicus with 8 samples.

Results

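Collagen, laminin and integrin genes were examined in 8 right kidney samples from female rats of the F344/NSlc strain, 10 weeks old, of which 4 are labelled nephrectomized and 4 sham-operated. The set was chosen by gene symbol and holds every gene on the array whose symbol has the form of a collagen chain (Col), a laminin chain (Lama, Lamb, Lamc) or an integrin chain (Itga, Itgb). This gave 48 of the 14400 named genes, made up of 20 collagens, 7 laminins and 21 integrin symbols, on 73 probes. A table of rat RefSeq genes holds 85 symbols of these forms, and those without a matched probe were not analysed here. Unilateral nephrectomy removes 1 kidney and leaves the other to do the work of both, and the comparison asks what differs in the remaining kidney soon after surgery. The source names place sampling 2 days after surgery in nephrectomized rats and 1 day after surgery in sham-operated rats, whereas the study's design text gives 2 days, so day and operation cannot be told apart if the source names are right. The labels list the samples as separate and name no animals, and p-values therefore measure only the spread between these samples, which may be technical.

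Collagen chains assemble as trimers. The fibrillar chains (types I, II, III, V and XI) build collagen fibres, and some of them those of the interstitium between tubules. The chains of type IV form the network of the basement membranes under tubules, vessels and glomeruli. Laminins are trimers of an alpha, a beta and a gamma chain that form a second network in the same membranes. Integrins are receptors of 1 alpha and 1 beta chain, through which cells hold on to these networks or, in leukocytes, to other cells. In many kidney diseases fibrillar collagens accumulate in the interstitium, and inherited loss of the glomerular type IV chains or of the laminin beta-2 chain damages the glomerular filter.

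Every sample had a 1-colour array to itself. The 75th percentile of the processed signal lay between 388 and 643 per array, 59.5% to 66.1% of 41012 probes were well above background, and 0 were saturated. There were 2 slides with separate scans, with replicates 1 and 2 of both groups on slide 1 and replicates 3 and 4 of both groups on slide 2. On both slides the nephrectomized arrays were at positions 3 and 4 and the sham arrays at positions 1 and 2, so position and group cannot be told apart. All values below are log2 signals relative to the array's own 75th percentile. Probes differ in how brightly they bind, so signals are compared between arrays and not between genes. The kidney label was checked against its markers, and all 8 proximal tubule, all 8 distal nephron and all 10 podocyte markers passed the filter on dim probes.

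None of the 38 tested members of the set passed the threshold between nephrectomized and sham kidneys (limma, Benjamini-Hochberg adjusted p under 0.05 over all features), against 217 of 20935 features, or 1.04%, over the whole array. At an unadjusted p under 0.05 there were 6 members, or 15.8% of those tested, against 16% of all features. In 5 members, or 13.2%, the nephrectomized and sham values did not overlap, against 11.1% of all features. Both shares were near those of the whole array. The 5 members were Col4a4, Lamb2 and Itga4, with every nephrectomized value under every sham value, and Itgae and Itgb3bp, with every nephrectomized value over every sham value. The median log2 change over the 38 members was -0.01, with 18 positive and 20 negative, and the median over all features was 0.0089.

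These data also bound the size of the differences. The limma 95% interval of the log2 change lay within 1 on either side of 0 for 37 of the 38 members (97.4%, against 95% of all features). Itgb1bp2 was the exception. The interval lay within 0.5 on either side for 27 members (71.1%, against 77% of all features). Of the other 10 members of the set, which did not pass the filter on dim probes, 4 were above background in 1 group only and are described further on. With slide as a block 7 members had an unadjusted p under 0.05, against 3349 of 20935 features (16%), and 0 passed the adjusted threshold, against 100 features (0.478%).

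**Figure D1:**
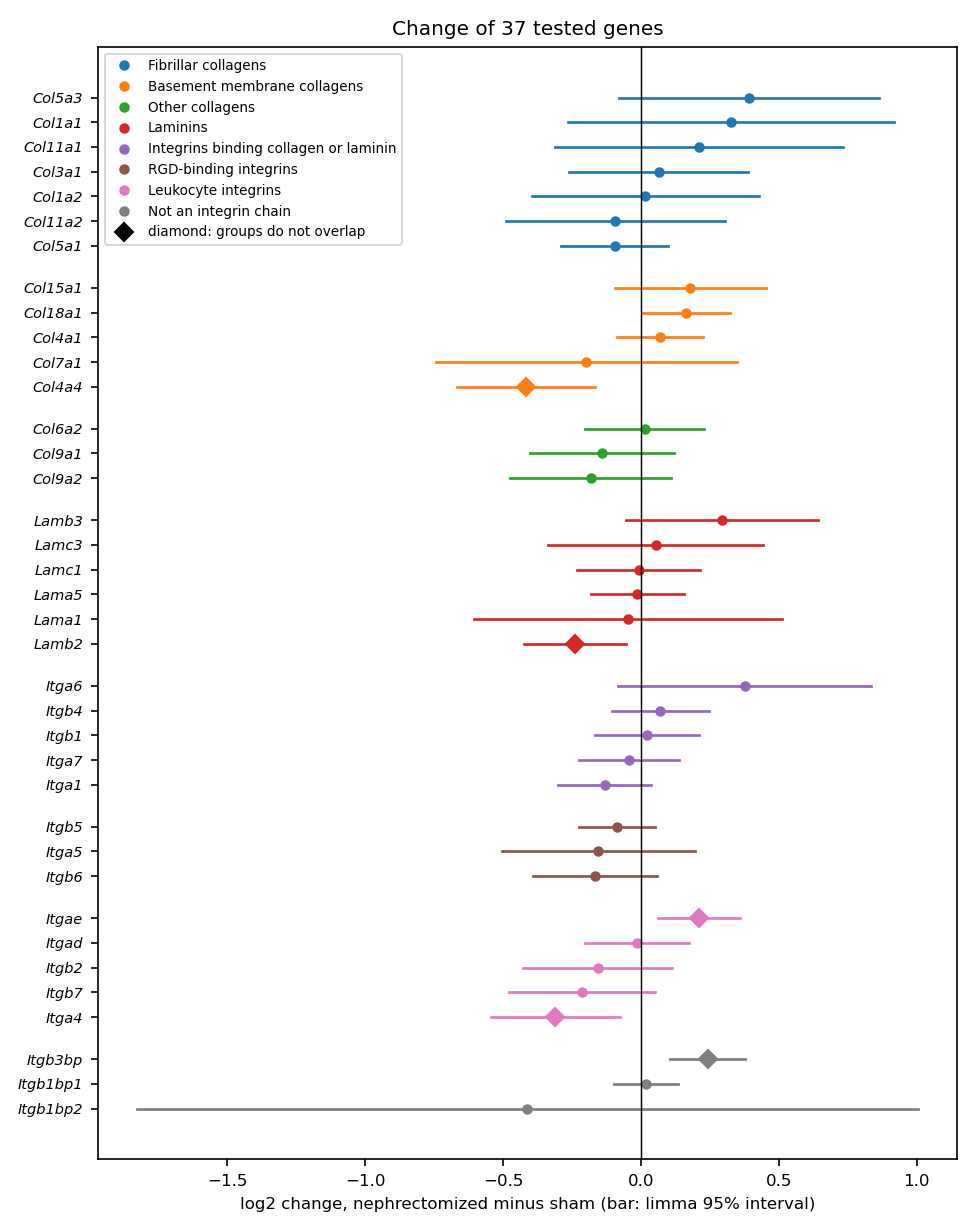
Log2 change of 37 of the tested genes (horizontal axis, nephrectomized minus sham) with its limma 95% interval, grouped by role. Diamonds mark the 5 genes whose nephrectomized and sham values did not overlap, and every interval drawn except that of Itgb1bp2 lies between -1 and 1.

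The chains of the basement membranes come first, because 2 of the 5 separated members belong there. The 5 basement membrane collagens on the array were all tested, with a median log2 change of 0.07 and a range from -0.42 to 0.18, 3 positive and 2 negative. Col4a4 encodes a chain of type IV collagen that assembles with the products of Col4a3 and Col4a5 in the glomerular basement membrane. Its log2 signal was 1.93, 1.86, 2.05 and 2.11 in nephrectomized kidneys 1 to 4, against 2.26, 2.72, 2.31 and 2.33 in sham kidneys 1 to 4. Every nephrectomized value lay below every sham value, and sham replicate 2 stood above the other sham kidneys. The means were 1.99 ± 0.11 in nephrectomized and 2.41 ± 0.21 in sham kidneys (SD, n = 4 each), a log2 change of -0.42 ± 0.11 (SE, 95% interval -0.67 to -0.16), and did not pass the threshold (limma adjusted p = 0.115). On slide 1 the difference was -0.59 and on slide 2 it was -0.24 on the log2 scale, and without sham replicate 2 it was -0.31 (limma adjusted p = 0.166).

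The promoter of Col4a4 is shown because this chain had the lowest adjusted p among the 35 tested members that are chains, and that of Itgb3bp because it had the lowest among all members. The promoter of Col1a2, a fibrillar collagen gene with little difference between the groups, is set beside them. The windows come from RefSeq (assembly GRCr8), which held 34 of the 48 members, and run from 250 bases before to 50 bases after the transcription start, in the direction of transcription. Both strands were searched, and capitals mark matches to CCAAT, the CCAAT box, to GGGCGG, the GC box, or to TATAAA, the TATA box. No match overlaps another. The Col4a4 window is chr9:91323528-91323827 on the minus strand, that of Itgb3bp is chr5:119640925-119641224 on the minus strand, and that of Col1a2 is chr4:33518307-33518606 on the plus strand.
Col4a4: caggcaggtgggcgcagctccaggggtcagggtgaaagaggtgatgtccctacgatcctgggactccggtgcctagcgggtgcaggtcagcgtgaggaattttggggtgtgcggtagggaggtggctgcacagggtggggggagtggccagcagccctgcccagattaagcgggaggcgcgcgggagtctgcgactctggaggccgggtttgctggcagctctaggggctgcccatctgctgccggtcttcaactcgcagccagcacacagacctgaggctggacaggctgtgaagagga
Itgb3bp: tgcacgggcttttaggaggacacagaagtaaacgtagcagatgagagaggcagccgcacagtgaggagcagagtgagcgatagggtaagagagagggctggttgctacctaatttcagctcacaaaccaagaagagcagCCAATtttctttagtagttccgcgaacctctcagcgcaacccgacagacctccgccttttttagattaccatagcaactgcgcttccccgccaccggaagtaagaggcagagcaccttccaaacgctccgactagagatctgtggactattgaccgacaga
Col1a2: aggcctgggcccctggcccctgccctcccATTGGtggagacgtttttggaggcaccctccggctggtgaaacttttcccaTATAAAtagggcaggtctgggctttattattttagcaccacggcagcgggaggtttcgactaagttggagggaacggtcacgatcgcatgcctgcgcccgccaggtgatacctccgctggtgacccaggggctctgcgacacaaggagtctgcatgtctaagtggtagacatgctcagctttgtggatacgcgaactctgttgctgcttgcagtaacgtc
None of the 3 motifs occurs in the Col4a4 window. The Itgb3bp window holds CCAAT on the coding strand, and the Col1a2 window holds CCAAT on the reverse strand and TATAAA on the coding strand. CCAAT occurs in 37.5% of 33469 RefSeq promoters of the same length and in 8 of the 34 member promoters, GGGCGG in 33.1% and in 16 members, and TATAAA in 14.2% and in 2 members. The windows of Col4a4 and Col4a3 lie on opposite strands, share 88 bases and have starts 413 bases apart. Col4a3 had no matched probe and was not analysed here. A match is a description of the letters only.

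The other basement membrane collagens overlapped between the groups. Col18a1 encodes the collagen whose end fragment is endostatin. Its log2 signal was 3.14, 3.26, 3.09 and 3.16 in nephrectomized kidneys, against 3.13, 2.94, 3.02 and 2.91 in sham kidneys. Only sham replicate 1 reached into the nephrectomized range, and the log2 change was 0.16 ± 0.07 (SE, 95% interval 0.0049 to 0.32, limma adjusted p = 0.298). It was 0.16 on both slides, and a second probe of the gene gave 0.18. Col4a1, a chain of the type IV collagen found in most basement membranes, had 3.20, 3.35, 3.42 and 3.38 in nephrectomized kidneys, against 3.24, 3.37, 3.22 and 3.24 in sham kidneys. The groups overlapped, with a log2 change of 0.07 ± 0.07 (SE, limma adjusted p = 0.668). Col15a1, a relative of Col18a1, differed by 0.18 ± 0.12, and Col7a1, the anchoring fibril collagen, by -0.20 ± 0.24 (SE, log2 scale).

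Of the 7 laminin chains, all tested, 3 were positive and 4 negative, with a median log2 change of -0.0085 and a range from -0.24 to 0.29. Lamb2 encodes the laminin beta-2 chain of the mature glomerular basement membrane. Its log2 signal was 1.75, 1.61, 1.74 and 1.49 in nephrectomized kidneys, against 2.03, 1.85, 1.87 and 1.80 in sham kidneys. All 4 nephrectomized values were below all 4 sham values. The means were 1.65 ± 0.12 in nephrectomized and 1.89 ± 0.10 in sham kidneys (SD, n = 4 each), a log2 change of -0.24 ± 0.08 (SE, 95% interval -0.42 to -0.05), and did not pass the threshold (limma adjusted p = 0.199). By slide, it was -0.26 on slide 1 and -0.22 on slide 2. Lama5 and Lamc1, the alpha and gamma chains that assemble with the product of Lamb2 in that membrane, both differed by -0.01 on the log2 scale, with SEs of 0.07 for Lama5 and 0.10 for Lamc1.

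Lama5 had 2.60, 2.69, 2.47 and 2.49 in nephrectomized kidneys, against 2.66, 2.56, 2.64 and 2.45 in sham kidneys. The groups overlapped throughout, and its 3 tested probes gave log2 changes from -0.23 to 0.15. Lamb3, a chain of the epithelial laminin that anchors skin, differed by 0.29 ± 0.15, Lamc3 by 0.05 ± 0.17 and Lama1 by -0.05 ± 0.24 (SE, log2 scale). The spread between replicates was wide for laminins as a class. Their median within-group SD was 0.24, against 0.13 over all features.

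Podocytes, which together with glomerular endothelium make the glomerular membrane, were followed through 10 markers beside Col4a4 and Lamb2. The summed linear marker signal, relative to the array's 75th percentile, ranged from 81.8 to 84.1 in nephrectomized kidneys and from 80.4 to 93.4 in sham kidneys, and 0 of the 10 markers passed the threshold. The part of podocytes in the Col4a4 and Lamb2 values was not tested. In whole kidney, fewer cells of a type and less RNA per cell cannot be told apart.

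**Figure D2:**
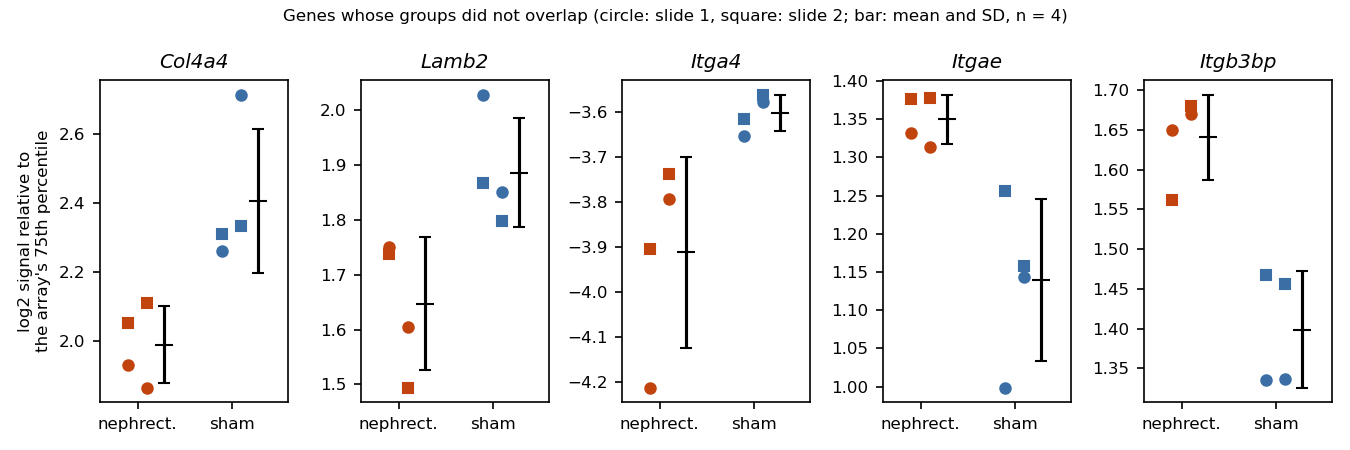
Log2 signal relative to the array's 75th percentile (vertical axis, separate scale per gene) on each array for the 5 genes whose groups did not overlap, nephrectomized left and sham right, with the mean and SD of 4 arrays. Circles are slide 1 and squares slide 2. The order of the groups is the same on both slides for each gene, which follows from choosing genes whose groups did not overlap.

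In 6 of the 7 tested fibrillar collagens the difference between the groups was smaller than the within-group SD, Col5a3 being the exception. The class, with 8 on the array, had results on 7 genes, with a median log2 change of 0.06 and a range from -0.09 to 0.39, 5 positive and 2 negative, and none separated the groups. Col1a1 and Col1a2 encode the alpha-1 and alpha-2 chains of type I collagen. Col1a1 had 2.04, 2.54, 2.87 and 2.77 in nephrectomized kidneys, against 1.59, 2.21, 2.71 and 2.40 in sham kidneys. The groups overlapped, with means of 2.55 ± 0.37 in nephrectomized and 2.23 ± 0.47 in sham kidneys (SD, n = 4 each). The log2 change was 0.33 ± 0.26 (SE, 95% interval -0.27 to 0.92, limma adjusted p = 0.583), and it was 0.11 without sham replicate 1 and 0.50 without nephrectomized replicate 1. A second Col1a1 probe gave 0.22 ± 0.10 (SE).

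Col1a2 had 3.61, 4.14, 4.31 and 4.08 in nephrectomized kidneys, against 3.60, 4.09, 4.18 and 4.19 in sham kidneys. Replicate 1 was lowest in both groups, and the group means were 4.03 ± 0.30 in nephrectomized and 4.02 ± 0.28 in sham kidneys (SD, n = 4 each). The log2 change was 0.02 ± 0.18 (SE, 95% interval -0.40 to 0.43, limma adjusted p = 0.977). Col3a1, the type III chain found with type I in interstitial fibres, had 1.90, 2.39, 2.45 and 2.22 in nephrectomized kidneys, against 1.88, 2.22, 2.31 and 2.30 in sham kidneys, a change of 0.06 ± 0.14 (SE). Both genes had overlapping groups and a difference smaller than the spread between replicates.

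The chains of types V and XI, which regulate fibril diameter, did not share a direction. Col5a3 differed by 0.39 ± 0.21 (limma adjusted p = 0.395) and Col11a1 by 0.21 ± 0.23, whereas Col5a1 and Col11a2 differed by -0.09 ± 0.09 and -0.09 ± 0.17 (SE, log2 scale). Second probes gave 0.01 ± 0.28 for Col11a1 and -0.18 ± 0.19 for Col5a1 (SE, log2 scale). Col5a3 had -2.96, -3.40, -3.09 and -2.56 in nephrectomized kidneys, against -3.60, -3.72, -3.22 and -3.03 in sham kidneys. The groups overlapped. Col2a1, the cartilage collagen, was well above background on 1 nephrectomized and 2 sham arrays and was not tested.

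In 5 of the 7 tested fibrillar collagens (Col1a1, Col1a2, Col3a1, Col5a1 and Col11a1), replicate 1 was the lowest array in both groups, as it was in 2 of 5 basement membrane collagens and in 2311 of 20935 features (11%). This count was made after the values were seen. Replicate 1 of both groups lay on slide 1. Only Col1a1 among the fibrillar collagens had both slide 2 arrays above both slide 1 arrays in each group, and its slide 2 mean exceeded its slide 1 mean by 0.59 on the log2 scale, more than the 0.33 between the groups. The SE of the Col1a1 change was 0.26 without a block and 0.07 with the replicate number as a block (limma adjusted p = 0.166). With slide as a block it was 0.17 (limma adjusted p = 0.395). For Col5a3 the limma adjusted p was 0.195 with the replicate block and 0.259 with the slide block. No fibrillar collagen passed the threshold in either fit. What lies behind the differences between replicates or slides was not tested. The median within-group SD of the fibrillar chains was 0.29, and that of Col1a1 lay at the 94.1 percentile of all features. Summed linear markers of fibroblasts and stroma ranged from 30.4 to 33.9 in nephrectomized kidneys and from 34.7 to 38.7 in sham kidneys. This sum is weighted to the brightest markers. With each marker centred on its mean over the 8 arrays, the list mean overlapped, from -0.15 to 0.04 in nephrectomized and from -0.07 to 0.16 in sham kidneys. Past the threshold were 0 of 8 tested markers, and Lum was below the filter. The part of these cells in the fibrillar values was not tested.

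**Figure D3:**
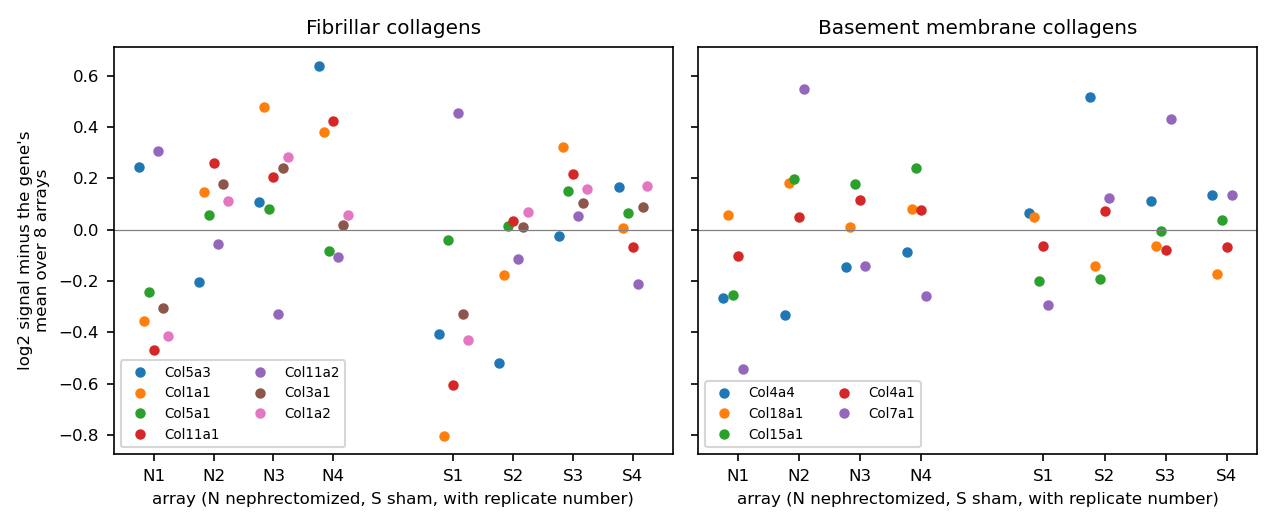
Log2 signal minus the gene's mean over the 8 arrays (vertical axis) for 7 fibrillar and 5 basement membrane collagens on each array, nephrectomized (N) left and sham (S) right. Replicate 1 is lowest in both groups for 5 of the 7 fibrillar collagens, and the nephrectomized values of Col4a4 all lie below its sham values.

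The fibrillar and the basement membrane chains were set against each other by class median and by class mean. The difference of the class medians of the log2 change, fibrillar minus basement membrane, was -0.0049, with a range from -0.0484 to 0.062 when 1 array was left out and a value of -0.129 on slide 2 alone. The fibrillar median itself ranged from 0.0022 without nephrectomized replicate 3 to 0.177 without nephrectomized replicate 1. After centring each gene on its mean over the 8 arrays, the fibrillar mean minus the basement membrane mean was 0.05, -0.06, 0.15 and 0.18 in nephrectomized kidneys 1 to 4, against -0.22, -0.17, 0.06 and 0.02 in sham kidneys 1 to 4. Over both slides the groups overlapped, with nephrectomized replicate 2 below 2 of the sham kidneys, but within each slide both nephrectomized arrays lay above both sham arrays. The difference of these means, nephrectomized minus sham, was 0.158 in all, 0.19 on slide 1 and 0.126 on slide 2, so that the class means and the class medians differ in sign. It is a description of chosen genes and was not tested. Laminin class means ranged from -0.07 to 0.12 in nephrectomized kidneys and from -0.10 to 0.07 in sham kidneys, which overlap.

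The remaining collagens are non-fibrillar chains outside the basement membrane, of which 3 of 7 were tested. Col6a2, a chain of the beaded filaments around cells, had -1.33, -1.11, -0.95 and -1.01 in nephrectomized kidneys, against -1.21, -1.18, -1.06 and -1.01 in sham kidneys. The groups overlapped, with a change of 0.01 ± 0.09 (SE). Col9a1 and Col9a2, chains of type IX collagen that sits on the surface of fibrils, differed by -0.14 ± 0.11 and -0.18 ± 0.13 (SE, log2 scale). Col9a2 had -1.23, -1.36, -1.77 and -1.73 in nephrectomized kidneys, against -1.23, -1.36, -1.42 and -1.35 in sham kidneys. The 2 slide 2 nephrectomized arrays were the lowest, and the change was -0.36 on slide 2 against -0.0007 on slide 1. Leaving out 1 array gave -0.279 (nephrectomized replicate 1) to -0.0994 (nephrectomized replicate 3). For Col9a1 a second probe gave 0.38 ± 0.25 (SE, log2 scale), opposite in sign. That probe was dim, well above background on 3 nephrectomized and 2 sham arrays.

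The receptors follow. Of 18 integrin chains on the array 13 were tested, 4 positive and 9 negative, with a median log2 change of -0.09. Their mean over the class, centred as above, was -0.036, -0.002, -0.051 and -0.002 in nephrectomized kidneys, against 0.012, 0.032, 0.045 and 0.003 in sham kidneys. The nephrectomized means all lay below the sham means, by 0.046 on average, which was not tested. Among the chains that bind collagen or laminin, 5 of 6 were tested, with a median change of 0.02. Itgb1 encodes the beta-1 chain shared by most matrix-binding integrins. It had 3.18, 3.03, 3.12 and 3.08 in nephrectomized kidneys, against 3.29, 3.06, 2.94 and 3.02 in sham kidneys. The groups overlapped, and the log2 change was 0.02 ± 0.08 (SE, 95% interval -0.17 to 0.21, limma adjusted p = 0.928). Itga1, the alpha chain of a collagen receptor, had 5.97, 6.15, 6.09 and 5.97 in nephrectomized kidneys, against 6.04, 6.27, 6.24 and 6.16 in sham kidneys, a change of -0.13 ± 0.07 (SE, limma adjusted p = 0.422). The 2 groups overlapped in this gene as well.

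Itga6, the alpha chain of laminin receptors, had the largest positive change of any tested integrin chain. It had 1.13, 1.11, 1.15 and 1.65 in nephrectomized kidneys, against 0.41, 1.24, 1.14 and 0.73 in sham kidneys. Nephrectomized replicate 4 was well above the other 3, sham replicates 1 and 4 were the low ones, and the groups overlapped. The log2 change was 0.38 ± 0.20 (SE, limma adjusted p = 0.400), and a second probe gave 0.20 ± 0.17 (SE). Itgb4, its partner in hemidesmosomes, differed by 0.07 ± 0.08, and Itga7, a laminin receptor chain best known from muscle, by -0.04 ± 0.08 (SE, log2 scale).

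Among the integrins that recognise the RGD motif of matrix proteins, 3 of 5 were tested and all 3 had negative changes. Itgb6, the epithelial beta chain that with the alpha-V chain activates latent TGF-beta, had 4.65, 4.36, 4.44 and 4.17 in nephrectomized kidneys, against 4.51, 4.56, 4.55 and 4.65 in sham kidneys. Nephrectomized replicate 1 was within the sham range and the other 3 were below it. The log2 change was -0.17 ± 0.10 (SE, limma adjusted p = 0.455), with -0.03 on slide 1 and -0.30 on slide 2, and -0.37 with normexp background correction (limma adjusted p = 0.192). Leaving out 1 array gave a range from -0.246 to -0.0883, at its ends without nephrectomized replicates 1 and 4. Itgb5, another partner of the alpha-V chain, had 2.25, 2.17, 2.13 and 2.18 in nephrectomized kidneys, against 2.32, 2.27, 2.33 and 2.15 in sham kidneys, a change of -0.09 ± 0.06 (SE). Sham replicate 4 lay inside the nephrectomized range. Itga5, the alpha chain of the fibronectin receptor, differed by -0.15 ± 0.15 on its brighter probe and by 0.05 on the other (SE, log2 scale).

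Leukocyte integrins included 2 of the 5 members whose groups did not overlap, in opposite directions. Of 7 on the array 5 were tested, 1 positive and 4 negative, with a median log2 change of -0.16. Itgae encodes the alpha-E chain (CD103), which pairs with the product of Itgb7 and binds E-cadherin on epithelial cells. It had 1.33, 1.31, 1.38 and 1.38 in nephrectomized kidneys, against 1.00, 1.14, 1.26 and 1.16 in sham kidneys. All nephrectomized values lay above all sham values, with means of 1.35 ± 0.03 in nephrectomized and 1.14 ± 0.11 in sham kidneys (SD, n = 4 each). The log2 change was 0.21 ± 0.07 (SE, 95% interval 0.06 to 0.36, limma adjusted p = 0.164), with 0.25 on slide 1 and 0.17 on slide 2. Itgb7, its partner, differed by -0.21 ± 0.12 (SE, limma adjusted p = 0.408).

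Itga4, the alpha-4 chain that binds VCAM-1 on endothelium, gave a dim signal. It had -4.21, -3.79, -3.90 and -3.74 in nephrectomized kidneys, against -3.65, -3.58, -3.61 and -3.56 in sham kidneys, and was well above background on 3 of 4 nephrectomized and 4 of 4 sham arrays. All nephrectomized values were below all sham values, by a log2 change of -0.31 ± 0.10 (SE, 95% interval -0.54 to -0.08, limma adjusted p = 0.189). With normexp background correction, which adds an offset and compresses dim signals, the change was -0.01 (limma adjusted p = 0.962). Itgb2, the beta chain of leukocyte adhesion receptors, had -1.13, -1.07, -1.02 and -1.10 in nephrectomized kidneys, against -0.90, -1.22, -0.97 and -0.60 in sham kidneys. Its groups overlapped, with a change of -0.16 ± 0.12 (SE, limma adjusted p = 0.562), which was -0.25 without sham replicate 2 and -0.05 without sham replicate 4. Itgad, an alpha partner of Itgb2, differed by -0.01 ± 0.08 (SE).

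Of the 13 tested leukocyte markers 12 had negative changes, with a median log2 change of -0.15. Past the threshold 3 were lower, against 1.04% of all features called in either direction. Their summed linear signal ranged from 36.9 to 43.1 in nephrectomized kidneys and from 39.6 to 44.4 in sham kidneys. That sum, too, is weighted to the brightest markers. With each marker centred on its mean over the 8 arrays, the list mean did not overlap. It ran from -0.24 to -0.08 in nephrectomized and from 0.11 to 0.24 in sham kidneys. This mean is weighted to the markers with the largest changes, S100a8 (-1.69) and S100a9 (-1.40). The lymphocyte markers Cd3e, Cd4 and Cd79b did not pass the filter on dim probes. The part of leukocytes in the Itgae, Itga4 and Itgb2 values was not tested.

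The 3 remaining members carry an integrin symbol and are not integrin chains. Itgb3bp, named for binding to the beta-3 chain and also known as the kinetochore protein CENP-R, had the lowest adjusted p of the whole set. It had 1.65, 1.67, 1.56 and 1.68 in nephrectomized kidneys, against 1.34, 1.34, 1.47 and 1.46 in sham kidneys. Every nephrectomized value was above every sham value. The means were 1.64 ± 0.05 in nephrectomized and 1.40 ± 0.07 in sham kidneys (SD, n = 4 each), a log2 change of 0.24 ± 0.06 (SE, 95% interval 0.11 to 0.38), which did not pass the threshold (limma adjusted p = 0.0966). Slide 1 gave a log2 change of 0.32 and slide 2 one of 0.16. Of 9 tested proliferation markers 3 were higher past the threshold, against 1.04% of all features called in either direction. Their median log2 change was 1.96, and their summed linear signal was 5.3 to 19.4 in nephrectomized kidneys and 2.93 to 3.76 in sham kidneys. The part of dividing cells in the Itgb3bp value was not tested.

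Itgb1bp1, a protein that binds the tail of the beta-1 chain, had 1.00, 0.92, 0.95 and 0.96 in nephrectomized kidneys, against 0.98, 0.94, 0.88 and 0.95 in sham kidneys. It showed the least spread of the named members, with a log2 change of 0.02 ± 0.05 (SE) and an interval from -0.10 to 0.13. Itgb1bp2, the muscle protein melusin, was near background, above it on 3 of 4 nephrectomized and 2 of 4 sham arrays. Its change was -0.41 ± 0.62 (SE, 95% interval -1.83 to 1.00), which leaves its direction unresolved.

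Several genes were read by more than 1 probe, which gives a second measurement from the same RNA. Of the 14 tested genes with several tested probes, 10 had all probes on the same side of 0 and 4 had probes on both sides (Lamc1, Lama5, Col9a1 and Itga5). Col4a1 gave 0.07 and 0.08, Col1a2 0.02 and 0.04, and Lamc1 -0.0085 and 0.0035 on the log2 scale. The widest gap was that of Col9a1, at -0.14 and 0.38, the latter from a dim probe above background on 3 nephrectomized and 2 sham arrays. Each of the 5 members whose groups did not overlap had a single tested probe.

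**Figure D4:**
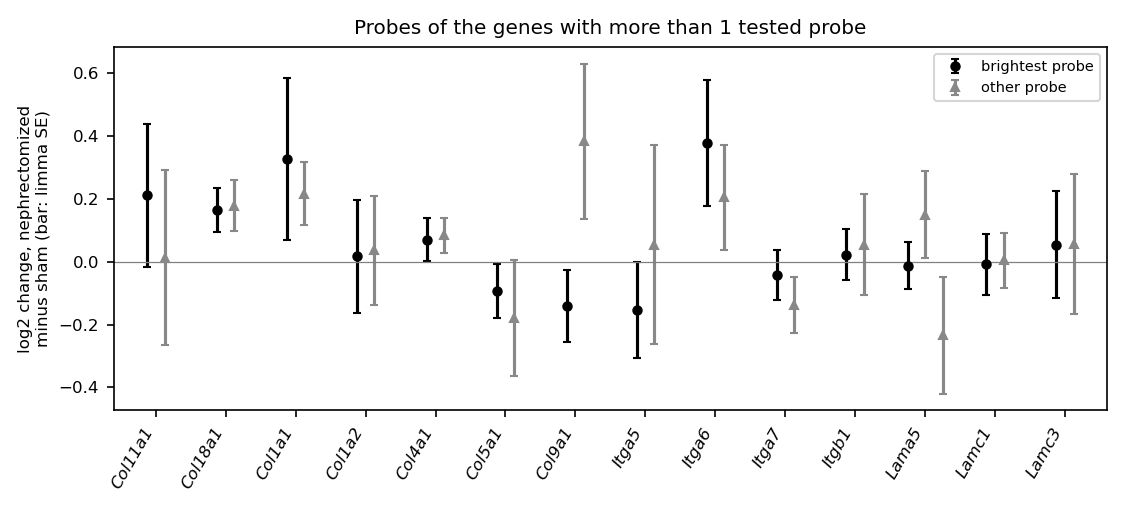
Log2 change (vertical axis, nephrectomized minus sham) with its limma SE for each tested probe of the 14 genes with more than 1 tested probe, circles for the brightest probe and triangles for the others. Probes lie on the same side of 0 in 10 genes and on both sides in Lamc1, Lama5, Col9a1 and Itga5.

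Of the 10 members that were not tested, Itgam, Itgb3, Itga10, Col14a1 and Col26a1 were not well above background on any array. Col8a1, a short-chain collagen of vessel walls, was above background on 3 of 4 nephrectomized and 0 of 4 sham arrays. It had -4.35, -3.99, -3.91 and -3.99 in nephrectomized kidneys, against -4.26, -4.49, -4.79 and -5.08 in sham kidneys, so that nephrectomized replicate 1 fell inside the sham range. Its measured signal was 1.51-fold higher in nephrectomized kidneys (limma without the filter, adjusted p = 0.314). Itga8, the alpha chain of the nephronectin receptor needed for kidney development, was above background on 2 nephrectomized and 0 sham arrays and measured 1.41-fold higher in nephrectomized kidneys (limma without the filter, adjusted p = 0.600), whereas its other probe gave no fold in that direction. Itgal, the alpha chain of the leukocyte integrin LFA-1, was above background on 0 nephrectomized arrays and 1 sham array, with -5.64, -6.48, -4.78 and -5.49 in nephrectomized kidneys, against -3.67, -4.84, -4.69 and -4.61 in sham kidneys. Nephrectomized replicate 3 lay above sham replicate 2, and the measured signal was 2.21-fold brighter in sham kidneys (limma without the filter, adjusted p = 0.353). Col23a1, a transmembrane collagen, was above background on 0 nephrectomized arrays and 1 sham array and measured 1.095-fold brighter in sham kidneys (limma without the filter, adjusted p = 0.944). Raising dim signals to the array's detection floor, its dimmest probe above background, left all 4 folds as measured. These signals already lay above that floor, so the step cannot show whether the folds are lower bounds. None of the 4 genes passed the threshold.

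Genes that act with these chains were described in 5 lists, in which 2 of 100 tested entries passed the threshold, against 1.04% of all features. In the collagen processing list 0 of 24 tested genes were called, with a median log2 change of -0.0081. Bmp1, the proteinase that trims fibrillar procollagens, differed by 0.17 ± 0.05 (SE, limma adjusted p = 0.172), and Loxl4, a lysyl oxidase relative that cross-links collagen, by 0.30 ± 0.11 (SE, limma adjusted p = 0.229). The groups did not overlap for either gene, as was so in 11.1% of all features. Loxl4 gave a dim signal, between -4.21 and -3.44 on the log2 scale. With the mean of its tested probes Bmp1 differed by 0.17 ± 0.10 (SE, limma adjusted p = 0.435). In the list of matrix proteinases and their inhibitors 0 of 19 were called, with a median of -0.04. Mmp11, a stromelysin, differed by -0.30 ± 0.08 (SE, limma adjusted p = 0.123) and Mmp23 by -0.25 ± 0.07 (SE, limma adjusted p = 0.125).

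Among partners of the basement membrane, 1 of 17 tested genes was called, lower in nephrectomized kidneys, and the list median was 0.02. This was Ntn4, netrin-4, a basement membrane protein that binds laminin gamma chains and is known to loosen laminin networks. It had -2.33, -2.28, -2.32 and -2.53 in nephrectomized kidneys, against -1.83, -1.74, -1.70 and -1.82 in sham kidneys. The groups stood well apart, with means of -2.36 ± 0.11 in nephrectomized and -1.77 ± 0.06 in sham kidneys (SD, n = 4 each). Ntn4 fell by 0.59 on the log2 scale (SE 0.07, 95% interval -0.75 to -0.43, limma adjusted p = 0.0151), with log2 changes of -0.52 on slide 1 and -0.66 on slide 2. It passed the threshold in 15 of 20 alternatives that used both slides, over which the limma adjusted p ranged from 0.00849 to 0.0927, and missed it with no filter on dim probes (0.0612), with the replicate number as a block (0.0927), and without nephrectomized replicate 3 (0.0533), sham replicate 2 (0.0652) or sham replicate 3 (0.0545). With normexp background correction the log2 change was -0.37.

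Among the proteins that link integrins to actin, 1 of 25 tested genes was called, higher in nephrectomized kidneys, and the list median was -0.02. This was Parva, alpha-parvin, which joins integrin-linked kinase to actin. It had 0.09, 0.19, 0.13 and 0.22 in nephrectomized kidneys, against -0.15, -0.16, -0.29 and -0.12 in sham kidneys. All nephrectomized values were above all sham values, and Parva was higher by 0.34 ± 0.06 on the log2 scale (SE, 95% interval 0.20 to 0.48, limma adjusted p = 0.0478). The call is near the threshold. It held in 7 of 20 alternatives that used both slides, with limma adjusted p from 0.024 to 0.145, and not with slide as a block (limma adjusted p = 0.0716). Leaving out any 1 of the 8 arrays also ended the call, with limma adjusted p from 0.064 without nephrectomized replicate 1 to 0.130 without nephrectomized replicate 4 or sham replicate 2.

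Of the ligands of integrins outside the set, 0 of 15 tested were called, with a median of 0.02. Thbs1, thrombospondin-1, had -3.37, -3.13, -3.33 and -3.18 in nephrectomized kidneys, against -2.70, -2.66, -2.70 and -3.12 in sham kidneys. The groups did not overlap, though sham replicate 4 lay next to the nephrectomized values, and the change was -0.46 ± 0.11 (SE, limma adjusted p = 0.102), and -0.11 with normexp background correction. Fn1, fibronectin, had 1.81, 2.14, 2.12 and 2.01 in nephrectomized kidneys, against 1.47, 1.64, 1.56 and 1.91 in sham kidneys, a change of 0.38 ± 0.11 (SE, limma adjusted p = 0.150). Sham replicate 4 reached into the nephrectomized range.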

How the data were processed

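Total RNA was extracted with an RNeasy kit, labelled with Cy3 and hybridised to 1-colour Agilent rat arrays, per the labels' protocols. The authors deposited a scanner file for every array, made by Agilent Feature Extraction (version 10.5.1.1 in the headers). Per the file headers, its processed signal is a linear intensity after background subtraction, with no scaling between arrays. The series table deposited beside them is in log2 values, whose processing is not given in the sources used here. Set against the scanner values over 30487 probes they correlated at 1.00 with a slope of 1.00 in every array, which makes them log2 values on the same scaling as here, in the same direction, with each probe's median over 8 arrays subtracted. Their column medians were 0.0012, 0.012, -0.00092 and 0.015 in nephrectomized and -0.015, -0.0023, -0.0010 and -0.0097 in sham replicates 1 to 4.

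Here log2 of the processed signal minus each array's 75th percentile was used. Control spots (1639 of 45018) and outlier spots were left out, spots of a probe were averaged, and probes well above background on at least 4 of 8 arrays were tested. Names came from RefSeq accessions without version matched to a RefSeq gene table of assembly GRCr8 (18713 of 41012 probes). Those gene names can be newer than the array, and the brightest probe stood for a gene. The test was limma (version 3.58.1, R 4.3.3) with lmFit and eBayes, nephrectomized minus sham and no covariates, with Benjamini-Hochberg adjustment over all 20935 features. The steps were tested on simulated data without slide or replicate structure. The planted changes were larger than that of any tested member, so the simulation does not bear on differences as small as theirs. The number of arrays limits the precision.

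Of the tested members, 1 enters the counts and medians and is not reported here by name. The members and the lists of related genes and markers were chosen with earlier results of these data known. Values on every array are given for members called, for members whose groups do not overlap (up to 4 per class), and for the 2 brightest per class. Of each related list up to 3 called genes are named, else the 2 with the smallest p. Col3a1, Col5a3, Itga6 and Col8a1 are also given in full, chosen after their values were seen. Alternatives were normexp, quantile and median normalization, 2 filters, 2 probe rules, a trended robust variance, weights per array, blocks for replicate number or slide, each slide alone, the deposited table, and leaving out each array. The files hold no mean spot signal, so normexp used the median spot signal with an offset of 50.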

Additional observations from a re-analysis of the deposited data

Results flagged for a closer look

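Across 38 tested members in 2 groups, 76 sets of 4 arrays were examined for an array far from the other 3 by Dixon's criterion, and 6 met it. Chance alone gives about 1 in 20. The values are log2 signals relative to the array's 75th percentile. Itga6 was 1.65 in nephrectomized replicate 4, and the nearest other nephrectomized kidney had 1.15. Itga7 was 3.09 in nephrectomized replicate 1, next to 2.84. Col15a1 was -0.228 in nephrectomized replicate 1, next to 0.206. Col4a4 was 2.72 in sham replicate 2, next to 2.33, and Col4a1 was 3.38 in the same kidney, next to 3.24. Col1a2 was 3.60 in sham replicate 1, next to 4.09.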

How the results depend on the processing

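No member of the set was called in any of the 22 alternatives, and Col4a4 and Lamb2 stayed negative and Itgb3bp and Itgae positive in each. On each slide alone and with 1 array left out these signs were fixed beforehand, because the groups of these genes did not overlap. The calls over the whole array moved widely around 217: 394 with probes above background on all 8 arrays, 20 with no filter, 530 with trend and robust variance, 502 with array weights, 100 with slide as a block, 0 on slide 1 alone, 0 on slide 2 alone, and 22 to 197 when leaving out 1 array. On slide 2 alone 2 members had an unadjusted p under 0.05, against 6. The median change of the integrin chains was -0.0102 with normexp and -0.0428 on slide 1 alone, and lay between -0.107 and -0.0381 when leaving out 1 array. The laminin median was 0.159 on slide 2 alone. Small changes turned sign: Col1a2 to -0.00346 with quantile normalization, and on slide 1 alone Col4a1 to -0.031, Itgb1 to -0.0701, Itgb1bp1 to -0.00147, Lama5 to 0.0363 and Col6a2 to -0.0301. When leaving out 1 array, Itgb1 ranged from -0.0241 to 0.0922, Col1a2 from -0.123 to 0.158, Lama5 from -0.0549 to 0.0187 and Col6a2 from -0.0372 to 0.0912. The causes were not tested. Signal over background limits Itga4, Itgb1bp2 and the untested members. Over all features, deviations from the group mean correlated at 0.141, 0.0111, -0.0574 and -0.209 between same-numbered arrays of the 2 groups. Between arrays of different number the correlations lay between -0.211 and 0.242. These array-wide values cannot settle whether kidneys of the same number were handled together. With the replicate number as a block 10 features and 0 members were called.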
